A study of Homo sapiens with 6 samples.

Results

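The SLC30 family of zinc exporters was examined in naive and primed human embryonic stem cells. Its members were the 10 genes named SLC30A1 to SLC30A10, taken from the 48183 gene names of the count table by name. The choice was made with earlier results of these data known. No member was listed under more than 1 identifier.

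Polyadenylated RNA had been sequenced in bulk in 6 libraries, with 4 naive and 2 primed samples. The labels name the line H1, and the methods of the study name H9, both established human embryonic stem cell lines. Every line carried EOS-GFP, a green fluorescent reporter that the study uses as a marker of the naive state. The primed EOS library and the primed CA-p38 EOS library came from untreated parental cells grown in StemFit on Matrigel. The CA-p38 EOS line also carried a constitutively active form of the kinase p38 that doxycycline (DOX) switches on. From the EOS line, naive cells had been induced with AICAR, an activator of the kinase AMPK, in 2 libraries (AICAR 1 and AICAR 2) and with valproic acid (VPA), an inhibitor of histone deacetylases, in 1 library. From the CA-p38 EOS line, naive cells had been induced with DOX in 1 library. By the labels, naive cells were then carried in PXGL medium with mouse embryonic feeder cells and sorted for the naive surface proteins CD75 and SUSD2, although the study also describes feeder-free culture of CA-p38-induced cells and does not tie it to a library. For primed cells neither a sort nor feeders are described. Medium, sort and passages since induction, and feeders where used, moved with the state and cannot be told apart from it. The study lists the AICAR cells at 2 consecutive passages after induction, without saying which library is which. It is not stated that the AICAR libraries came from separate inductions, so p-values measure the spread between these libraries only.

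Zinc transporters fall into a pair of families that work in opposite directions. SLC30 proteins, also called ZnT, move zinc out of the cytosol, across the plasma membrane or into organelles and vesicles, and SLC39 proteins, also called ZIP, bring zinc into the cytosol. Metallothioneins are small cysteine-rich proteins that bind zinc in the cytosol, and the zinc-sensing transcription factor MTF1 is known to drive metallothionein genes and SLC30A1 through short promoter motifs, the metal response elements.

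The libraries held between 46823699 and 54277064 counts. The 6 naive markers were DPPA5, DPPA3, KLF17, KLF4, TFCP2L1 and SUSD2. They summed to between 1852 and 2153 counts-per-million (CPM) with TMM scaling in the naive libraries. In the primed EOS and primed CA-p38 EOS libraries the sums were 9.88 and 7.66 CPM. SUSD2, on which naive cells were sorted, gave 427 to 668 CPM of the naive sums, a part that the sort fixed in advance. The 6 primed markers summed to between 39.9 and 50.6 CPM in naive and to 2727 and 3303 CPM in primed libraries, so the labels of state fitted the data. Markers of other cell types stand beside all tested genes, of which 26% were called higher and 27% lower in naive cells. Their counts of calls are not read as a result about those cell types. The 8 fibroblast markers summed to between 38.2 and 77.2 CPM in naive and to 200 and 181 CPM in primed libraries, with 3 of the 7 tested lower in naive cells, none higher, FAP at 0 in 5 of the 6 libraries and LUM at 0 in 2 naive libraries. Of 6 trophoblast and amnion markers 4 were higher in naive cells and none lower, with CGA at 0 in 1 naive library and CDX2 at 0 in 1 primed library. Their sums were 20.03 to 24.1 CPM in naive against 4.06 and 5.35 CPM in primed libraries. CDX2 and TFAP2A, at up to 4 counts in primed libraries, entered the test through naive counts alone. Only a call of higher was open to those genes. The 4 endoderm markers, of which 1 was higher and 2 lower, summed to between 11.6 and 17.7 CPM against 7.37 and 30.5 CPM, with GATA4 at 0 in 1 primed library. The part of such cells in the results below was not tested, and in bulk RNA fewer cells of a type cannot be told apart from less RNA per cell.

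To show where metal response elements could lie, the promoters of SLC30A1, of SLC30A2 and of MT2A were read from RefSeq (GRCh38.p14). They are given because SLC30A1 is the family's textbook MTF1 target, SLC30A2 had the family's largest difference between the states, and MT2A is a classical metal-responsive gene. Each is the 250 bases before the annotated start, 5′ to 3′ on the gene's strand, and capitals mark the 7-base core of the element (TGCACNC or TGCGCNC, either strand, where N is any base).
SLC30A1, chr1:211579162-211579411, minus strand: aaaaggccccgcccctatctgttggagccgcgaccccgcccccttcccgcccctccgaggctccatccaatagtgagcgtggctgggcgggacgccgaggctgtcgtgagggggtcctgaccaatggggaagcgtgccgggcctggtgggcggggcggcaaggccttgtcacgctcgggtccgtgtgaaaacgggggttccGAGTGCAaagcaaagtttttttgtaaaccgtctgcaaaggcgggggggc
SLC30A2, chr1:26046119-26046368, minus strand: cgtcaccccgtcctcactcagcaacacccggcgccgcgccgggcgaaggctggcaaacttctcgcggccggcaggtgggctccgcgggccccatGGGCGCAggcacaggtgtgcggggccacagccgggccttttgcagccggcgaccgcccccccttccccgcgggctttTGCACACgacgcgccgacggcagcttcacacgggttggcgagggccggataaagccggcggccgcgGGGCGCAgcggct
MT2A, chr16:56608334-56608583, plus strand: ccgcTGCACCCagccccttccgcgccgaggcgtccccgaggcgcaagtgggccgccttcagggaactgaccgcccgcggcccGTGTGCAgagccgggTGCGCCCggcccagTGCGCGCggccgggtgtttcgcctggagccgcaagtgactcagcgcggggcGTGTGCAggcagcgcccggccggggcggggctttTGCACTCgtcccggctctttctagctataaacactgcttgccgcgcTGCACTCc

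A core match is a description of the letters and not a measured site. In the upstream bases SLC30A1 held 1 core, at position -49 from the start, on the opposite strand. A second SLC30A1 core lay after the start, at position 25, in the stretch gagaccgggccGAGTGCAgctgccgtggcc. SLC30A2 held 3 cores, at positions -156, -79 and -13. MT2A held 8 in its window of 300 bases (250 before the start and 50 after), 7 of them upstream of the start. Of all 35116 windows of this length, 29.6% held at least 1 core and 8.6% held at least 2. Of the 9 members with a window, SLC30A1, SLC30A2, SLC30A3, SLC30A4 and SLC30A6 held a core and SLC30A5, SLC30A7, SLC30A9 and SLC30A10 held none. Members with a core stood among those higher in naive cells, those lower and those that did not pass. All 5 metallothionein genes with a window (MT1B, MT1H, MT1X, MT2A and MT4) held at least 2. Of these, MT1B and MT4, at up to 3 and up to 7 counts in a library, had too few counts to be tested. MT1A, MT1E, MT1F, MT1G, MT1M and MT3 had no window.

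In naive cells the transporters of the family changed in both directions. With edgeR's quasi-likelihood test and Benjamini-Hochberg adjustment over 26497 genes, SLC30A2, SLC30A4, SLC30A5 and SLC30A10 were higher in naive cells, SLC30A1 and SLC30A9 were lower, and SLC30A3, SLC30A6 and SLC30A7 did not pass the threshold of 0.05. SLC30A8 had too few counts to be tested. Thus 6 of 9 tested members were called, where 53.1% of all tested genes were called. The 4 higher members stand beside 26% of all genes called higher, and the 2 lower members beside 27% called lower. Naive and primed libraries did not overlap in 8 of 9 tested members, beside 64.9% of all tested genes, and these counts are not read as a result about the family. The median log2 fold change of the 9 members was 0.01, beside 0.11 over all genes tested. The states differed widely over the whole transcriptome, and the values of each member are given by its site of action.

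**Figure D1:**
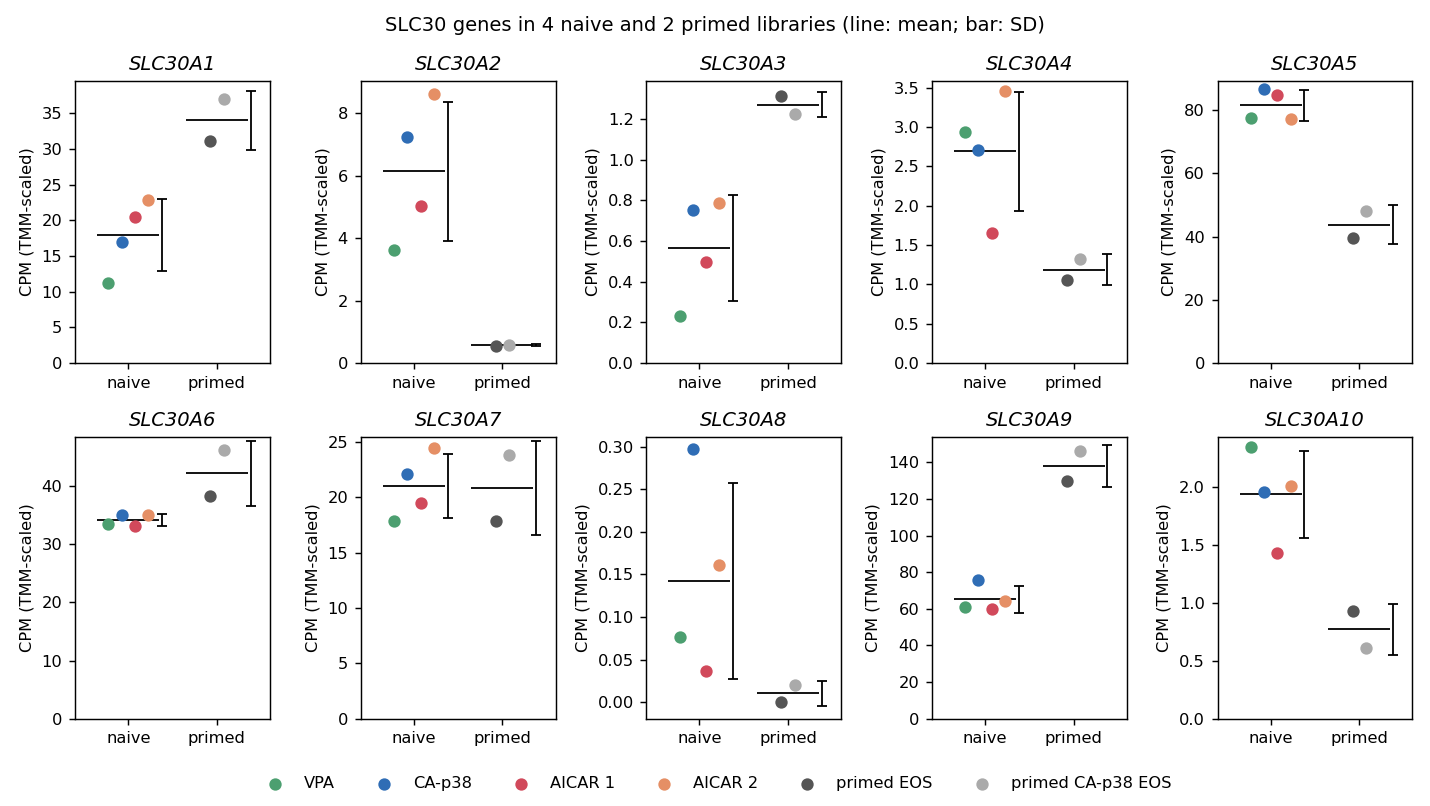
CPM (TMM-scaled) of each SLC30 member on an axis of its own, with 1 point for each library, a line at the group mean and a bar for the SD (n = 4 naive, n = 2 primed). Of the tested members, SLC30A7 alone has naive and primed libraries in the same range, and SLC30A2 has the widest gap between them relative to its primed level.

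Among the members at the plasma membrane, SLC30A1 (chromosome 1, 211571568 to 211579161, minus strand, GRCh38) is the main exporter of zinc from the cell. It stood at 11.2 CPM in VPA, 17.0 in CA-p38, 20.5 in AICAR 1 and 22.8 in AICAR 2 naive cells, against 31.1 CPM for primed EOS and 36.9 CPM for primed CA-p38 EOS cells. Every naive library was below both primed libraries, with VPA the lowest. The means were 17.9 ± 5.04 CPM (SD, n = 4) and 34.02 ± 4.15 CPM (SD, n = 2), and the log2 fold change was -0.93 with a standard error (SE) of 0.22 and a 95% interval from -1.41 to -0.45, 1.9-fold lower than in primed cells (edgeR's quasi-likelihood test, adjusted p = 0.0034). The call held under all 15 alternative settings, with adjusted p from 1.25e-06 to 0.0449.

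SLC30A10 (chromosome 1, 219685427 to 219959018, minus strand), known as the exporter of manganese whose loss raises blood manganese, moved the other way. It measured 2.35, 1.96, 1.43 and 2.01 CPM in VPA, CA-p38, AICAR 1 and AICAR 2 naive cells and 0.929 and 0.613 CPM in primed EOS and primed CA-p38 EOS cells. All naive libraries were above both primed libraries. The log2 fold change was 1.33 (SE 0.38, interval from 0.51 to 2.14), 2.51-fold higher than in primed cells (edgeR's quasi-likelihood test, adjusted p = 0.0095). The call rested on the primed CA-p38 EOS library, without which the log2 fold change was 1.07 with an adjusted p of 0.0954, in a range from 0.00565 to 0.0954 over the 15 alternatives.

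Of the members that load vesicles, SLC30A2 (chromosome 1, 26037252 to 26046118, minus strand), known for supplying zinc to milk, showed the largest difference of the tested members. It stood at 3.63 CPM in VPA, 7.26 in CA-p38, 5.04 in AICAR 1 and 8.63 in AICAR 2 naive cells and at 0.545 and 0.593 CPM in primed EOS and primed CA-p38 EOS cells. Naive libraries varied among themselves, with VPA the lowest and AICAR 2 the highest, and all were far above the primed libraries. Means were 6.14 ± 2.24 CPM (SD, n = 4) and 0.569 ± 0.0335 CPM (SD, n = 2), a log2 fold change of 3.43 (SE 0.41, interval from 2.53 to 4.32) or 10.7-fold (edgeR's quasi-likelihood test, adjusted p = 1.35e-05). The call held under all 15 alternatives, with log2 fold changes from 3.22 to 3.60.

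SLC30A4 (chromosome 15, 45479606 to 45522755, minus strand), a transporter of endosomes and secretory vesicles, gave 2.94, 2.71, 1.66 and 3.46 CPM in VPA, CA-p38, AICAR 1 and AICAR 2 naive cells and 1.05 and 1.33 CPM in primed EOS and primed CA-p38 EOS cells. Naive libraries were above primed ones, with AICAR 1 the nearest to them. The log2 fold change was 1.18 (SE 0.36, interval from 0.39 to 1.96), 2.26-fold (edgeR's quasi-likelihood test, adjusted p = 0.0154). Without the primed EOS library it was 1 with an adjusted p of 0.115, and over the 15 alternatives the adjusted p ran from 0.00565 to 0.115. The libraries were made with a stranded kit, but whether counting used the strand is not stated, and SLC30A4 shares 139 exon bases with its antisense gene SLC30A4-AS1, which had 57, 69, 69 and 65 counts in the naive libraries and 18 and 14 counts in the primed libraries. It also shares 215 exon bases with HMGN2P46, which had 18 to 52 counts in naive and 31 and 33 in primed libraries. Reads of those genes and of SLC30A4, which had 90 to 172 counts in naive and 52 and 65 in primed libraries, cannot be told apart if strand was not used.

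SLC30A3 (chromosome 2, 27253684 to 27275817, minus strand), which fills synaptic vesicles of neurons with zinc, was low in all libraries. It measured 0.229, 0.752, 0.497 and 0.785 CPM in VPA, CA-p38, AICAR 1 and AICAR 2 naive cells and 1.31 and 1.23 CPM in primed EOS and primed CA-p38 EOS cells. The naive libraries were all below the primed libraries, but the log2 fold change of -1.17 (SE 0.49) did not pass the threshold (edgeR's quasi-likelihood test, adjusted p = 0.0601, from 0.0291 to 0.192 over the alternatives). SLC30A3 shares 42 exon bases with DNAJC5G on the opposite strand, which had 24 counts in VPA cells and at most 10 elsewhere.

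SLC30A8 (chromosome 8, 116950273 to 117176714, plus strand), the transporter of insulin granules in pancreatic beta cells, was barely detected. It had 4, 15, 2 and 8 counts in VPA, CA-p38, AICAR 1 and AICAR 2 naive cells and 0 and 1 counts in primed EOS and primed CA-p38 EOS cells. A count of 0 in the primed EOS library allows up to 0.0591 CPM (3 counts). The pooled 29 naive counts and 1 primed count gave a ratio of 13.8 per unit of depth with a 95% counting interval from 2.29 to 563, which covers counting error only. With no filter on low counts SLC30A8 could be tested and did not pass (edgeR's quasi-likelihood test, adjusted p = 0.107). With either primed library left out, SLC30A8 entered the fit through the 15 counts of the naive CA-p38 library alone. The fitted log2 fold change was 2.65 without primed EOS. Without primed CA-p38 EOS it was 5.89, but the primed library left had 0 counts, so that size was set by the model's prior count.

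In the early secretory pathway, SLC30A5 and SLC30A6 form a heterodimer and SLC30A7 a homodimer that supply zinc to enzymes such as the alkaline phosphatases. SLC30A5 (chromosome 5, 69093991 to 69131069, plus strand) stood at 77.6, 86.8, 84.7 and 77.2 CPM in VPA, CA-p38, AICAR 1 and AICAR 2 naive cells and at 39.5 and 48.2 CPM in primed EOS and primed CA-p38 EOS cells. The naive libraries lay close together and well above both primed libraries. Means of 81.6 ± 4.90 CPM (SD, n = 4) and 43.8 ± 6.17 CPM (SD, n = 2) gave a log2 fold change of 0.90 (SE 0.12, interval from 0.63 to 1.16), 1.86-fold (edgeR's quasi-likelihood test, adjusted p = 4.45e-05). The call held under all 15 alternatives, with log2 fold changes from 0.75 to 1.05. A long noncoding RNA that shares 532 exon bases with SLC30A5 on the opposite strand had only 5 to 26 counts, against 1954 to 4604 counts of SLC30A5.

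The partner SLC30A6 (chromosome 2, 32165841 to 32224379, plus strand) measured 33.5, 35.1, 33.2 and 34.99 CPM in VPA, CA-p38, AICAR 1 and AICAR 2 naive cells and 38.2 and 46.2 CPM in primed EOS and primed CA-p38 EOS cells. Naive libraries were below both primed ones by a small margin. The log2 fold change was -0.30 (SE 0.12, interval before adjustment from -0.57 to -0.04), with an adjusted p of 0.0541 (edgeR's quasi-likelihood test), and under the alternatives the adjusted p ran from 0.029 to 0.469. The pseudogene SLC30A6P1 had at most 2 counts.

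SLC30A7 (chromosome 1, 100896076 to 100981757, plus strand) gave 17.9, 22.1, 19.4 and 24.5 CPM in VPA, CA-p38, AICAR 1 and AICAR 2 naive cells and 17.8 and 23.8 CPM in primed EOS and primed CA-p38 EOS cells. The groups overlapped. The log2 fold change of 0.01 had an interval from -0.37 to 0.39 and did not pass (edgeR's quasi-likelihood test, adjusted p = 0.964), and its sign changed with the scaling.

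The ratio of these subunits within a library does not depend on scaling. Counts of SLC30A5 were 2.32, 2.48, 2.55 and 2.2 times those of SLC30A6 in VPA, CA-p38, AICAR 1 and AICAR 2 naive cells and 1.03 and 1.04 times in primed EOS and primed CA-p38 EOS cells. Counts of SLC30A5 were 3.16 to 4.36 times those of SLC30A7 in naive and 2.21 and 2.02 times in primed libraries. In neither ratio did the states overlap. These ratios were chosen after the values were seen and were not tested. They take no account of gene length, so they are read between libraries and not as the level of a gene over that of another. Of the zinc enzymes served by this route, 4 of 4 alkaline phosphatase genes were called higher in naive cells, beside 26% of all genes tested, and 3 were called with RLE factors, with DESeq2 and without the CA-p38, AICAR 1, primed EOS or primed CA-p38 EOS library. ALPI, at 0 counts in both primed libraries, and ALPP, at 3 and 8 counts there, entered the test through naive counts alone. Only a call of higher was open to them, and the study itself names ALPG among naive state-related genes. With at least 10 counts in every library, 2 alkaline phosphatase genes were called higher. ALPL, the tissue-nonspecific form, had a log2 fold change of 0.35 (SE 0.12, edgeR's quasi-likelihood test, adjusted p = 0.0305). The near-identical placental forms ALPP and ALPG, between which reads may be split, went from 0.0606 and 0.164 CPM and from 1.41 and 0.511 CPM in primed EOS and primed CA-p38 EOS cells to between 258 and 316 CPM and between 1975 and 2441 CPM in naive cells.

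SLC30A9 (chromosome 4, 41990502 to 42090461, plus strand), a mitochondrial transporter known to carry zinc out of the matrix, measured 130 CPM in the primed EOS and 146 CPM in the primed CA-p38 EOS library. Naive cells had 61.1 CPM in VPA, 75.6 in CA-p38, 59.8 in AICAR 1 and 64.1 in AICAR 2. All naive libraries were below both primed libraries. Means of 65.2 ± 7.20 CPM (SD, n = 4) and 138 ± 11.5 CPM (SD, n = 2) gave a log2 fold change of -1.08 (SE 0.12, interval from -1.34 to -0.83), 2.12-fold lower than in primed cells (edgeR's quasi-likelihood test, adjusted p = 5.24e-06). The call held under all 15 alternatives, with log2 fold changes from -1.18 to -0.98.

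**Figure D2:**
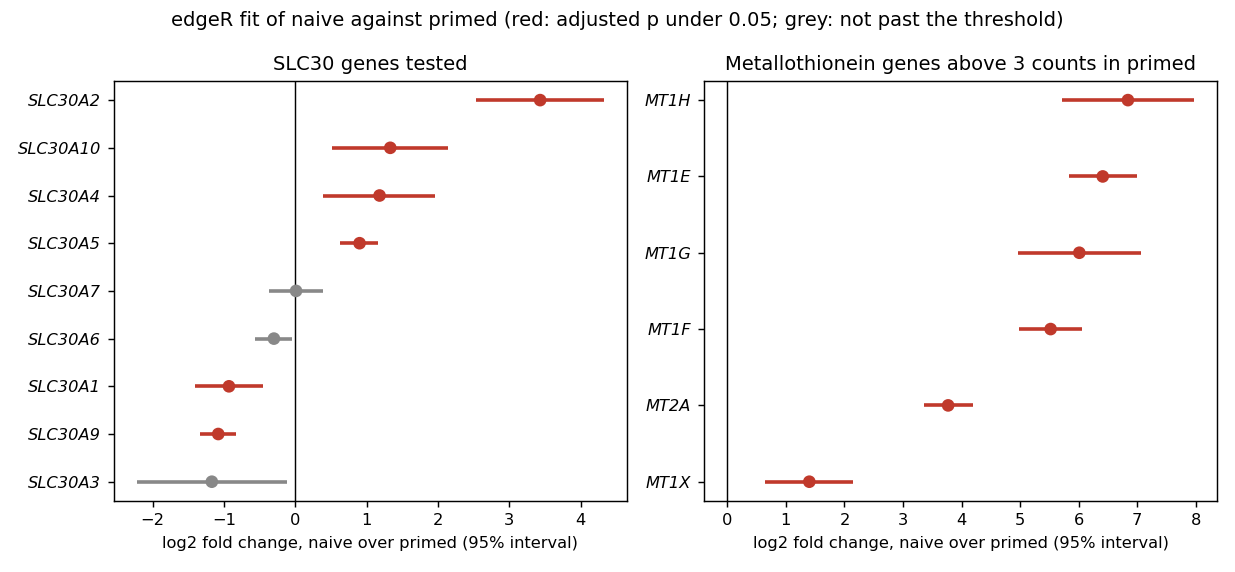
Log2 fold change of naive over primed libraries with its 95% interval for the 9 tested SLC30 members and, on the right, for metallothionein genes with more than 3 counts in a primed library. Red marks an adjusted p under 0.05 in edgeR's quasi-likelihood test. Grey marks genes not past that threshold. SLC30A2 at 3.43 is the highest member and SLC30A3 at -1.17 the lowest, and MT1H reaches 6.84.

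Members were ranked by level per length, as transcripts-per-million (TPM) values computed from counts per base of annotated exons. In primed cells the order was SLC30A9 (69.5 ± 7.20 TPM, SD, n = 2), SLC30A5 (29.2 ± 4.71), SLC30A6 (28.3 ± 4.34), SLC30A1 (20.9 ± 2.98), SLC30A7 (8.79 ± 1.96), and then SLC30A3, SLC30A2, SLC30A4, SLC30A10 and SLC30A8, all under 1 TPM. SLC30A5 and SLC30A6 overlapped in that order, and so did SLC30A2 and SLC30A4. In naive cells the order was SLC30A5 (51.6 ± 3.93 TPM, SD, n = 4), SLC30A9 (31.2 ± 4.46), SLC30A6 (21.8 ± 1.68), SLC30A1 (10.5 ± 3.30), SLC30A7 (8.44 ± 1.597), SLC30A2 (6.15 ± 2.52), SLC30A4 (1.16 ± 0.363), SLC30A10 (0.725 ± 0.141), SLC30A3 (0.343 ± 0.169) and SLC30A8 (0.0798 ± 0.0657). There SLC30A1 overlapped with SLC30A7 and SLC30A7 with SLC30A2, as did SLC30A4 with SLC30A10 and SLC30A3 with SLC30A8. SLC30A5 thus ranked above SLC30A9 in naive cells by exon length, but with coding length in its place SLC30A9 led there too, at 44.3 against 40.2 TPM. In primed cells coding length put SLC30A6 (30.4 TPM) and SLC30A1 (25.5 TPM) above SLC30A5 (21.1 TPM).

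Within the summed TPM of the family, SLC30A9 made up 44.8% and 42.9% in primed EOS and primed CA-p38 EOS cells and 22.1% to 25.5% in the naive libraries. SLC30A5 made up 18.0% and 18.7% in primed and 35.9% to 41.4% in naive libraries. SLC30A1 went from 13.1% and 13.2% to between 5.50% and 9.79%, and SLC30A2 from 0.388% and 0.359% to between 3.004% and 6.26%. The sum itself was 113 to 145 TPM in naive and 144 and 174 TPM in primed libraries, which overlapped. The shares overlapped between the states in SLC30A6 alone, at 15.7% to 17.9% in naive and 17.5% and 18.0% in primed libraries. Even SLC30A7 was separate, at 6.00% to 7.19% against 5.14% and 5.85%. Separate shares were thus not particular to the members named above and are not read as a result about them. All shares rest on exon length, and their sizes depend on the length used.

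**Figure D3:**
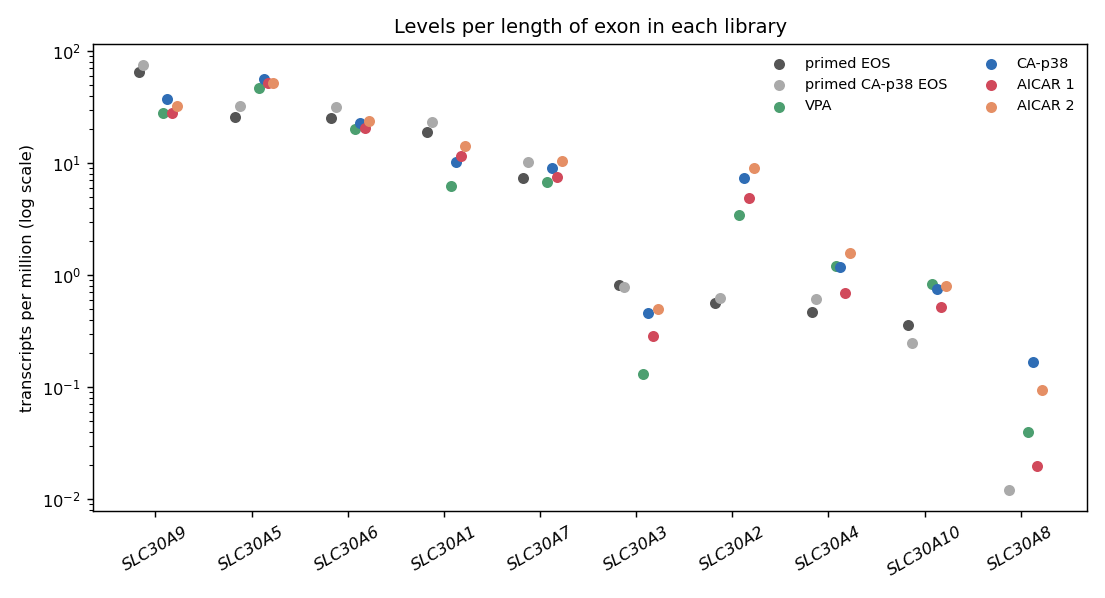
Level of each SLC30 member per length of exon, in TPM on a log axis, ordered by the mean of the primed libraries. Each point is a library, and the primed EOS library, with 0 counts of SLC30A8, has no point there. SLC30A9 leads in primed cells at 69.5 TPM on average and SLC30A5 in naive cells at 51.6 TPM, where with coding length SLC30A9 led.

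Each naive library was also set beside the primed library of its own parental line, which gives 1 library on each side and no test over replicates. The 95% intervals cover counting error only. SLC30A1 stood at 0.362 times the primed level in VPA cells (interval from 0.328 to 0.398), at 0.460 in CA-p38 (0.423 to 0.499), at 0.659 in AICAR 1 (0.610 to 0.713) and at 0.734 in AICAR 2 cells (0.679 to 0.793). All 4 values were below 1, with VPA the lowest. The CA-p38 value was 0.499 when set against the mean of both primed libraries, and with 1 library each the inductions VPA and CA-p38 were not compared with the others. SLC30A2 stood at 6.55, 12.1, 9.09 and 15.6 times the primed level in VPA, CA-p38, AICAR 1 and AICAR 2 cells. The AICAR libraries, made with the same agent, had SLC30A2 intervals from 6.21 to 14.3 and from 10.7 to 24.3. SLC30A9 lay within 0.460 to 0.517 times and SLC30A5 within 1.80 to 2.15 times the primed level in all 4 naive libraries. These were the most even of the called members across those libraries. SLC30A4 ran from 1.57 to 3.27 and SLC30A10 from 1.54 to 3.16 times, both lowest in AICAR 1. SLC30A3 ran from 0.180 in VPA to 0.616 in CA-p38 cells.

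The parental lines were induced by different means, so line and induction cannot be told apart here. The difference between the lines in the effect of state was tested as an interaction in edgeR. It rested on 1 naive and 1 primed library on the CA-p38 side, so a missing call does not show equal effects. It was called in 1 of 26497 genes (0.00377%) and in no member. The members' differences ran from -0.35 to 0.68 on the log2 scale with SE of 0.22 and above (edgeR's quasi-likelihood test, unadjusted p of 0.411 or more, adjusted p = 1).

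**Figure D4:**
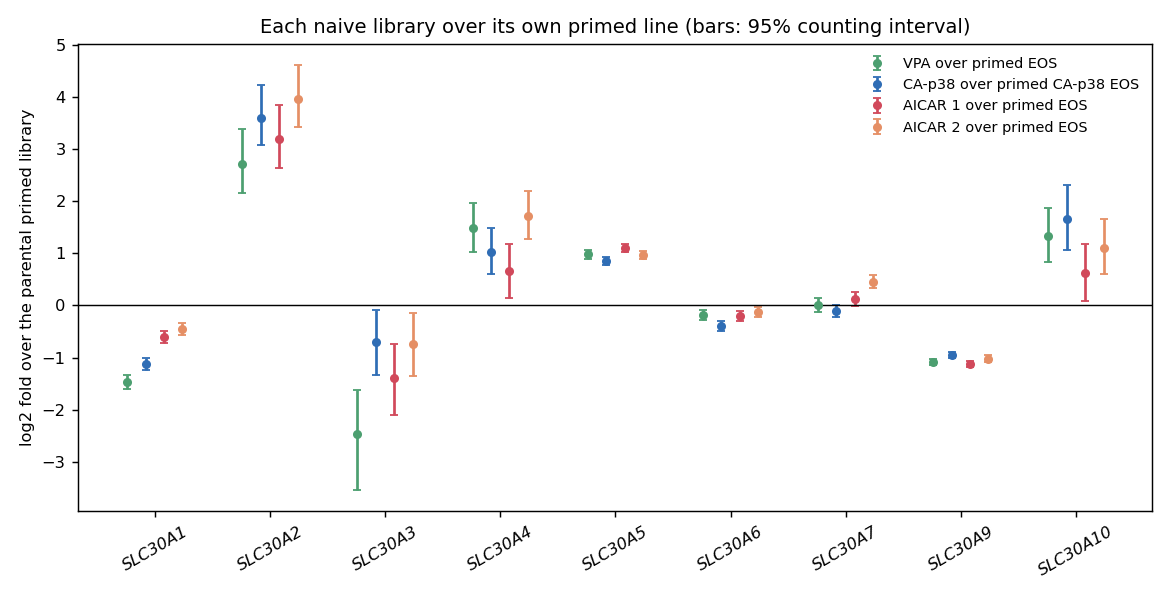
Log2 fold of each naive library over the primed library of its own parental line for the 9 tested SLC30 members, with bars for the 95% counting interval and a line at 0. SLC30A5 and SLC30A9 sit at nearly the same value in all 4 naive libraries, and SLC30A1 runs from -1.47 in VPA to -0.45 in AICAR 2 cells.

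The metallothioneins rose in naive cells, where SLC30A1 was lower. Of 11 metallothionein genes, 8 could be tested, and all of these passed as higher, beside 26% of all genes tested. The median log2 fold change of the 8 was 6.21. It was 5.76 with MT1A and MT1M, at 0 or 1 count in primed cells, set against 3 counts. MT1A and MT1M entered the test through naive counts alone, so only a call of higher was open to them. With at least 10 counts in every library, 6 metallothionein genes were called higher. The sum of the family was 866, 733, 1015 and 788 CPM in VPA, CA-p38, AICAR 1 and AICAR 2 naive cells and 91.6 and 31.6 CPM in primed EOS and primed CA-p38 EOS cells. MT2A had a log2 fold change of 3.77 (SE 0.19) and MT1X of 1.40 (SE 0.35). Metallothionein genes are near-identical copies, so reads may be split between them, and the sum is given for that reason. MTF1 itself gave 10.6, 15.96, 17.8 and 15.6 CPM in VPA, CA-p38, AICAR 1 and AICAR 2 naive cells and 12.9 and 15.1 CPM in primed EOS and primed CA-p38 EOS cells, with a log2 fold change of 0.10 (SE 0.20, edgeR's quasi-likelihood test, adjusted p = 0.707).

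Set against SLC30A1, the counts of the metallothionein sum were 77.0, 43.2, 49.5 and 34.5 times those of SLC30A1 in VPA, CA-p38, AICAR 1 and AICAR 2 naive cells and 2.95 and 0.856 times in primed EOS and primed CA-p38 EOS cells. No naive library came near the primed ratios. Within naive cells the order of SLC30A1 was not that of the metallothioneins: AICAR 1 had the highest metallothionein sum and the second highest SLC30A1. This ratio too was chosen after the values were seen and was not tested.

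**Figure D5:**
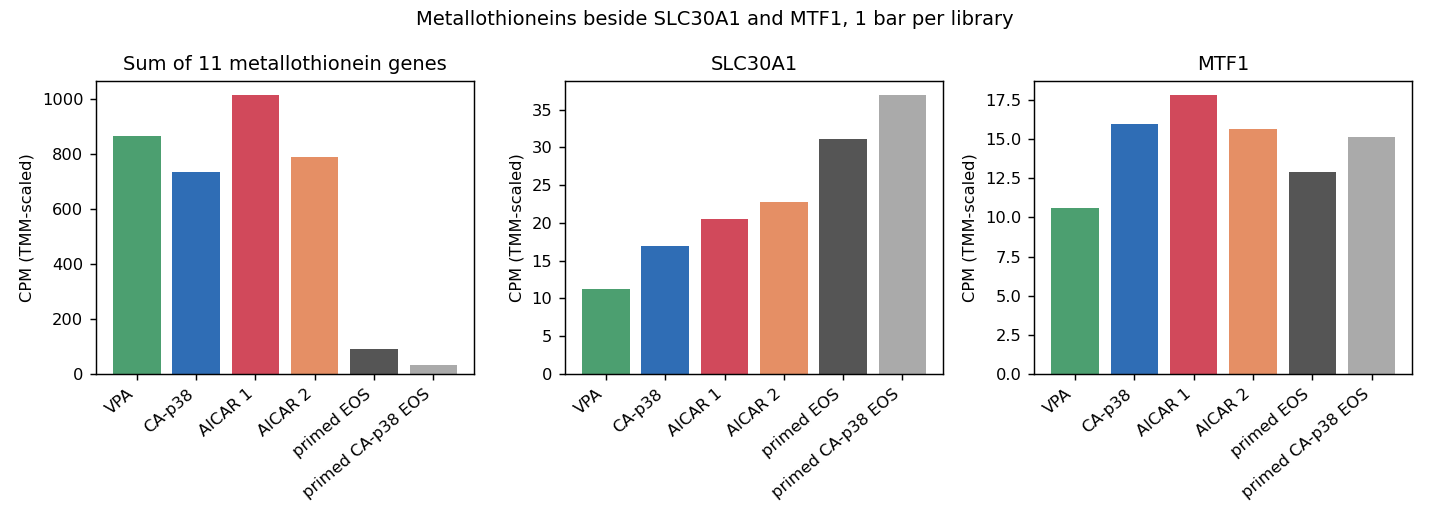
CPM (TMM-scaled) of the summed 11 metallothionein genes, of SLC30A1 and of MTF1, with 1 bar for each library. The metallothionein sum lies at 733 to 1015 CPM in naive and at 91.6 and 31.6 CPM in primed libraries, SLC30A1 is lower in every naive library, and the groups overlap for MTF1.

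Of the zinc importers, 11 of 14 SLC39 genes were tested, of which 2 were higher in naive cells, 5 were lower and 4 did not pass, beside 26% and 27% of all genes tested called higher and lower. Their median log2 fold change was -0.03 beside 0.11 over all genes, and these counts are not read as a result about the importers. SLC39A4, the importer of dietary zinc in the intestine, stood at 50.9, 63.1, 55.4 and 50.2 CPM in VPA, CA-p38, AICAR 1 and AICAR 2 naive cells and at 1.09 and 0.654 CPM in primed EOS and primed CA-p38 EOS cells, a log2 fold change of 5.97 (SE 0.23, edgeR's quasi-likelihood test, adjusted p = 4.85e-10). SLC39A11 was also higher, by 1.06. The lower importers were SLC39A6 (-2.86), SLC39A8 (-2.05), SLC39A14 (-1.56), SLC39A10 (-0.95) and SLC39A9 (-0.78), of which SLC39A8 and SLC39A14 are known to carry manganese and iron as well as zinc. SLC39A1, SLC39A3, SLC39A7 and SLC39A13 did not pass, with log2 fold changes from -0.03 to 0.20.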

How the data were processed

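Bulk RNA-seq libraries of 4 naive and 2 primed samples were analysed, grouped by the cell type that the labels give. The table deposited by the authors holds raw, whole counts for Ensembl gene identifiers. Before that, the authors had removed adapters (cutadapt), aligned the reads by Bowtie2 to cDNA and noncoding RNA sequences of GRCh38, and counted per gene those aligned at a mapping quality of 1 or more. The submitters' processing notes also name cutadapt 1.15 and Trim Galore 0.4.4, and RSEM and limma without a version. The library kit (SMART-Seq Stranded) keeps the strand, and use of the strand in counting is not given in the sources used here. Of 61222 features, 26 spike-in sequences (at most 1 count in a library) were left out, and identifiers sharing a name were summed to 48183 names, 6932 of which had more than 1 identifier. In the same table, 23 columns of other studies were not used.

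Genes were kept by filterByExpr with the state as group, and TMM factors ran from 0.936 to 1.06. The quasi-likelihood test of edgeR 4.0.16 (R 4.3.3) compared the states, and p-values were adjusted by Benjamini-Hochberg over 26497 names, with a threshold of 0.05. The common dispersion was 0.0563. SE and 95% intervals come from the same model. Folds over a parental library used a prior count of 0.5 and Clopper-Pearson intervals, which cover counting error only. Libraries of 46823699 to 54277064 counts put the floor of 3 counts at 0.0553 to 0.0641 CPM. TPM used exon lengths of GENCODE annotation on GRCh38, and positions came from there. Motifs were searched in RefSeq promoters. Other steps ran in Python 3.11.15 (pandas 2.3.3, numpy 2.4.6, matplotlib 3.10.9, scipy 1.17.1).

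Named genes were the 10 members and every gene of the lists of metallothioneins, SLC39 importers, MTF1, other zinc transporters, alkaline phosphatases, other metal transporters and cell type markers, genes overlapping a member, and the 3 genes most like SLC30A1. The members and lists were chosen with earlier results of these data known. One parental line gave both a naive and a primed CA-p38 library and the other line the rest, by the labels. Deviations of the CA-p38 libraries from their group means correlated with r = 0.13 over 26497 genes, a single pair. Alternatives were RLE factors, library totals, DESeq2 1.42.0, limma-voom 3.58.1, other count filters, the parental line as a block, AICAR libraries summed, identifiers not summed, and each library left out. The interaction and the ratios within a library were added after seeing the data. Single-cell RNA-seq of the study was not analysed here. The neural marker list is not reported here.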

Additional observations from a re-analysis of the deposited data

How the results depend on the processing

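SLC30A1, SLC30A2, SLC30A5 and SLC30A9 kept their direction and call under all 15 alternatives. The parental line as a replicate block changed no call of a member (SLC30A1 -0.91). SLC30A6 passed at -0.36 with RLE factors (adjusted p = 0.0356) and with DESeq2 (0.029) and at -0.31 with identifiers not summed (0.0486), and leaving out a library moved it from -0.45 to -0.15, with a call at -0.45 without primed EOS (0.0322). SLC30A3 passed at -1.31 with limma-voom (0.0291), at -1.19 with no filter (0.0464) and at -1.14 with at least 10 counts in every library (0.04), and ran from -1.36 to -0.92 without a library, with a call without AICAR 2 (0.0477). SLC30A4 ran from 1 to 1.36 and SLC30A10 from 1.07 to 1.64 without a library. SLC30A7 turned to -0.04 with RLE factors and with DESeq2 and to -0.02 with no filter and with AICAR libraries summed, and ran from -0.20 to 0.24 without a library. The cause was not tested. Other metal transporters had 2 lower genes with RLE factors and with DESeq2, and 0 to 2 lower and 0 to 1 higher without a library. Alkaline phosphatases called higher numbered 2 under the filter of 10 counts in every library, 3 under RLE factors and DESeq2, and 3 to 4 without a library. Ranked by coding length, 6 members in naive and 5 in primed cells kept their place. Of 160 alternative folds over a parental line 131 stayed within the counting interval, 29 moved and 0 reversed. The median of all genes moved from 0.11 to 0.06 with RLE factors and to 0.21 with library totals. The number of primed libraries (2) limits every value, and low counts limit SLC30A3, SLC30A4, SLC30A8 and SLC30A10.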

Other observations

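Other transporters of zinc and metals gave a mixed picture in the same libraries. MCOLN1, a channel of lysosomes that passes calcium, iron and zinc, stood at 22.5, 22.4, 30.6 and 28.1 CPM in VPA, CA-p38, AICAR 1 and AICAR 2 naive cells and at 13.0 and 16.4 CPM in primed EOS and primed CA-p38 EOS cells, a log2 fold change of 0.82 (SE 0.18, edgeR's quasi-likelihood test, adjusted p = 0.00198). TMEM163, a zinc transporter of vesicles, did not pass at -1.26 (SE 0.71, adjusted p = 0.153). Of 6 transporters of other metals, the copper pump ATP7B was higher by 0.74 (SE 0.20, adjusted p = 0.00668) and the related copper pump ATP7A fell by 0.95 on the log2 scale (SE 0.26, adjusted p = 0.00768), and 4 did not pass.

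The genes whose profile over the 6 libraries was nearest to that of SLC30A1, among the 12603 genes averaging 5 CPM or more, were FZD4, S1PR3 and IL1RAP, with root mean square differences of 0.0809, 0.0822 and 0.0973 on the log2 scale. Of the 3 beta cell markers listed beside SLC30A8, INS was not among the counted gene names. PDX1 was called higher in naive cells, beside 26% of all genes tested, and IAPP did not pass. PDX1, at 5 and 9 counts in primed libraries, entered the test through naive counts alone, so only that call was open to it. The sums of PDX1 and IAPP were 0.955 to 2.35 CPM in naive and 0.343 and 0.858 CPM in primed libraries.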
